A study of Mus musculus with 2 samples.

Results

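The mRNA of 7 genes was followed in dendritic cells (DCs) of the mouse lymph node: *Crlf2* and *Il7r*, which encode the chains of the receptor for thymic stromal lymphopoietin (TSLP), *Il4ra* and *Il13ra1*, which encode chains of the receptors for IL-4 and IL-13, and *Stat5a*, *Stat5b* and *Stat6*, which encode the transcription factors below these receptors. They were chosen by name as receptors on which type 2 priming by DCs depends, and all 7 were among the 18049 genes listed for both libraries. The data were CITEseq, in which the mRNA of single cells is counted by unique molecular identifiers (UMIs) together with barcoded antibodies, of sorted MHCIIhi CD11c+ B220- lymph node cells from B6 mice. The mice were naive or had been immunized in the rear footpads 1 day earlier with OVA plus papain, a cysteine protease that acts as an allergen, and each condition had 1 library. The authors had assigned each cell by its antibody values to CD301bhi, CD301bint or CD301blo cDC2s, cDC1s or Langerhans cells (LCs), and left some cells without a class. By the study's methods the papain cells came from popliteal nodes and the naive cells from pooled skin-draining nodes, whereas the labels name both sites for both libraries, so that immunization, node site and library cannot be told apart.

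TSLP is made by epithelial cells of injured or allergen-exposed skin and binds a receptor of CRLF2 and the IL-7 receptor alpha chain, which signals mainly through STAT5. IL-4 binds IL-4R alpha paired with the common gamma chain, encoded by *Il2rg*, or with IL-13R alpha 1, the pair that also binds IL-13, and both signal mainly through STAT6. In the skin and its draining nodes, TSLP is known to condition DCs for the priming of Th2 cells, and the IL-7 receptor alpha chain is also the defining cytokine receptor of resting T cells.

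The 7 genes lie on 6 chromosomes. On chromosome 11 the spans of *Stat5b*, on the minus strand, and *Stat5a*, on the plus strand, lie 346 bases apart, head to head. The proximal promoters of the TSLP receptor genes are shown (250 bases before to 50 bases after the start, RefSeq sequence of GRCm38.p6). These genes encode both chains of 1 receptor. With all cells their mRNA levels had the widest (*Crlf2*) and the narrowest (*Il7r*) span of the 7 genes over classes and libraries. The narrow span of *Il7r* did not hold without cells that carried T cell mRNA, as described below. *Crlf2* is at chr5:109558944-109559243 on the minus strand, and *Il7r* at chr15:9529827-9530126 on the minus strand, with a match to the STAT5-type motif TTCNNNGAA in capitals.
Crlf2: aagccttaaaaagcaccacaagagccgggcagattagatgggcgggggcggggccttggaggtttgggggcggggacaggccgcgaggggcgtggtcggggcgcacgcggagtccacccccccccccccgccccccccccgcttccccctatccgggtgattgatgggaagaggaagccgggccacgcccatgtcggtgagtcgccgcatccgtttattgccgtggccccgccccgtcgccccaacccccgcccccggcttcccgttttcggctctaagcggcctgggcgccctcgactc
Il7r: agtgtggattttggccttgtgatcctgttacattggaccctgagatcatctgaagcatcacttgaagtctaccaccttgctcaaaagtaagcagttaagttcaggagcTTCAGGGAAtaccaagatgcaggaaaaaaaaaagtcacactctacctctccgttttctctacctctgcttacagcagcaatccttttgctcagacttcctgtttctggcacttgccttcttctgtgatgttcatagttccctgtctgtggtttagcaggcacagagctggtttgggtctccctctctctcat
The *Crlf2* window was 71.7% G and C and the *Il7r* window 45.7%. The motif TTCNNNGAA, which reads the same on both strands, was found in 1 of the 9 promoter windows of the 7 genes, that of *Il7r*, and in 8.30% of all 32851 windows. TTCNNNNGAA, the STAT6-type spacing, was in 0 of the 9 and in 6.95% of all windows. A match is a description of the letters and not a binding site.

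The naive library held 3471 cells, 3042 of them with a class, and the papain library 7596, 7306 of them with a class, at a median of 13764 and 14738 UMIs per cell. The libraries shared 2 cell barcodes. The class names were checked against marker mRNA. The summed level of *Cd207* and *Epcam* was highest in LCs of both libraries (148 and 215 CPM, UMIs per 1000000) and that of *Xcr1*, *Clec9a* and *Irf8* in cDC1s (588 and 850 CPM). Markers of T cells reached 192 CPM in naive cDC1s but 25.4 CPM at most in papain classes. Each value below is the CPM of the UMIs summed over the cells of a class, with its exact 95% Poisson interval in brackets. With 1 library per condition no value has a replicate and no test was made, and all intervals cover counting error only. CPM are compared within a gene and not between genes, since 3' counts depend on the gene.

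*Crlf2*, the TSLP-specific chain, was highest in naive CD301blo cDC2s, at 44.9 CPM (40.6 to 49.4). It was at 37.1 CPM in CD301bint and 27.8 CPM in CD301bhi cDC2s, 33.6 CPM in cDC1s and 27.1 CPM in LCs of the naive library. In the papain library the same classes were at 28.1, 23.4, 21.2, 34.5 and 18.6 CPM. The naive values of the 3 cDC2 classes and of LCs were thus above the papain values, with intervals that did not overlap, and only the cDC1 intervals overlapped. *Il7r*, the chain shared with the IL-7 receptor, was at 121, 127 and 139 CPM in naive CD301bhi, CD301bint and CD301blo cDC2s and at 110, 120 and 165 CPM in those of the papain library. Naive and papain cDC1s had 130 and 127 CPM of *Il7r*, and LCs 132 and 124 CPM. The highest of the 10 values, in papain CD301blo cDC2s (159 to 171), did not overlap the next.

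*Il4ra* differed by at most 1.17-fold between the libraries in any class. Naive and papain cDC1s both had 105 CPM and LCs both had 66.2 CPM, the highest and the lowest levels, while the cDC2 classes lay between 78.7 and 94.1 CPM. *Il13ra1*, which joins IL-4R alpha in the receptor used outside the lymphoid lineages, was highest in CD301bhi and lowest in CD301blo among the cDC2 classes of both libraries. It was at 72.1, 60.4 and 55.2 CPM in naive CD301bhi, CD301bint and CD301blo cDC2s, where the intervals of CD301bint and CD301blo overlapped. In the papain library it was at 77.2, 67.2 and 50.7 CPM in these classes. It was lowest in naive cDC1s, at 36.4 CPM against 46.5 CPM in papain cDC1s, and at 53.4 and 55.0 CPM in LCs. *Il2rg*, the common gamma chain, ran the other way, from 81.3 CPM in naive CD301bhi to 108 CPM in naive CD301blo cDC2s and from 90.1 to 102 CPM in the papain library, and was lowest in LCs at 39.1 and 53.4 CPM.

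*Stat5a* and *Stat6* each had a low value in naive LCs. *Stat5a* was at 53.8 CPM (47.8 to 60.4) in naive LCs and 84.8 CPM (80.6 to 89.1) in papain LCs, a papain level close to the 85.2 CPM of papain CD301bhi cDC2s. *Stat6* was at 31.2 CPM (26.7 to 36.4) in naive and 48.6 CPM (45.4 to 51.9) in papain LCs, against 40.3 to 50.5 CPM in all other groups. *Stat5a* was also lower in naive cDC1s (49.1 CPM) than in naive cDC2s (76.1 to 94.8 CPM), and at 64.4 CPM in papain cDC1s. *Stat5b* ranged from 23.1 CPM in papain cDC1s to 40.0 CPM in naive CD301bint cDC2s, the group in which it stood furthest above its papain counterpart (28.0 CPM). The coding parts of *Stat5a* and *Stat5b* are nearly alike, and reads that could come from either are uncertain. In the order of the 10 levels, no neighbours of *Crlf2*, *Il13ra1*, *Stat5b* or *Stat6* had separate intervals. With all cells the highest level was between 1.51 times (*Il7r*) and 2.41 times (*Crlf2*) the lowest. Without cells with a UMI of *Cd3d*, *Cd3e*, *Cd3g* or *Trac*, *Il7r* ran from 65.1 CPM in naive cDC1s to 162 CPM in papain CD301blo cDC2s.

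**Figure D1:**
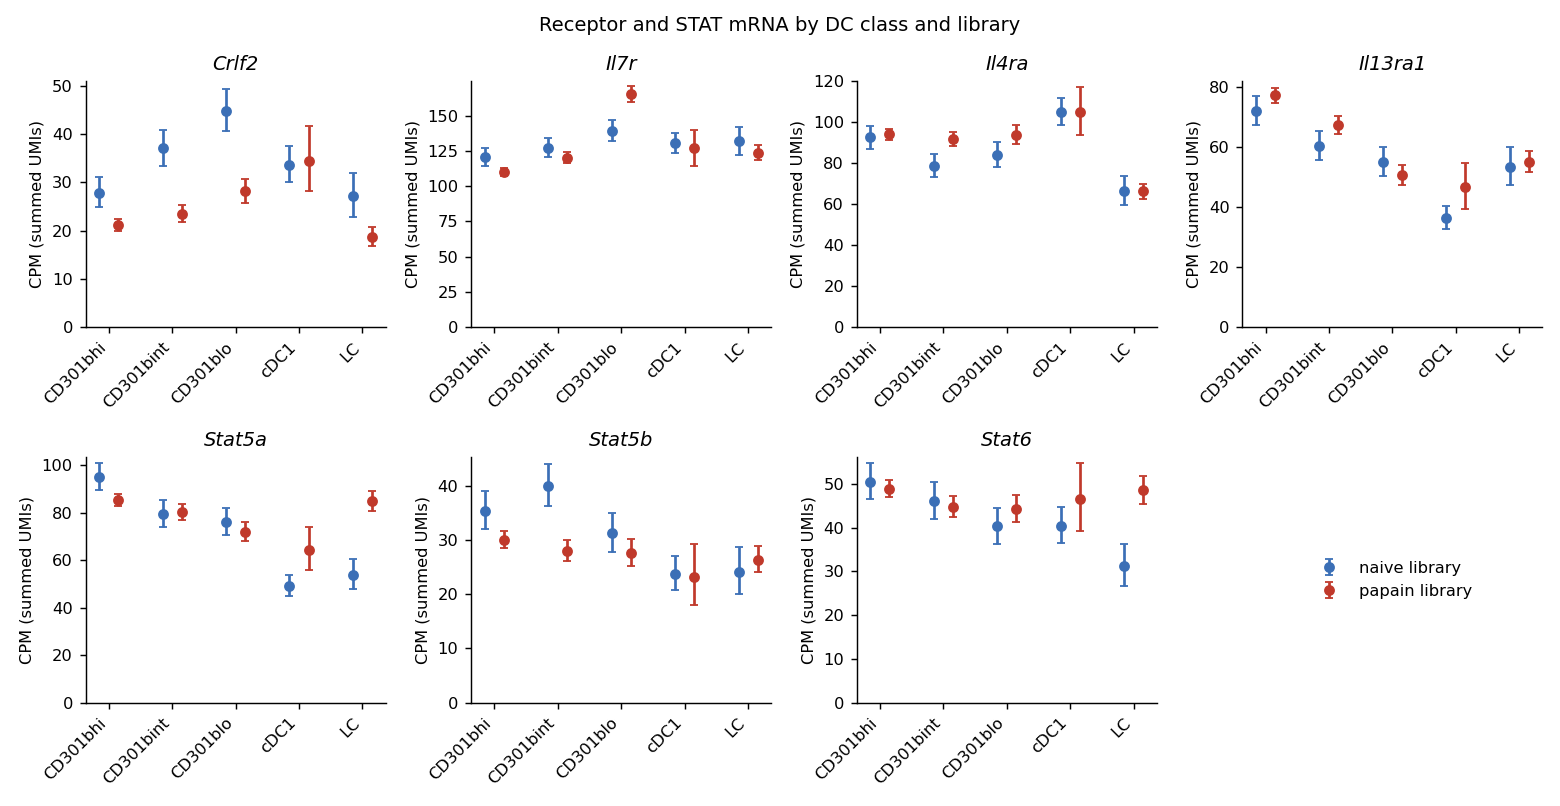
CPM of summed UMIs (y axis, from 0) of each of the 7 genes in the 5 DC classes (x axis) of the naive (blue) and papain (red) library; points are 1 library each and bars are exact 95% Poisson intervals. *Crlf2* was lower in the papain library in the cDC2s and LCs, *Stat5a* and *Stat6* were higher in papain LCs, and *Il4ra* in cDC1s and LCs lay at the same level in both libraries.

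To ask whether the receptors for TSLP and IL-4 differed 1 day after papain, each class was compared between the libraries. A gene was counted when it had at least 10 CPM in the higher group, which all 7 had in each comparison, and was at least 1.5-fold apart. In CD301bhi cDC2s, 0 of the 7 genes were higher and 0 lower by that measure, where 10.2% of 7226 genes were higher and 8.39% lower. The median log2 ratio of papain to naive was -0.14 for the 7 genes and 0.09 for all genes. *Crlf2* had the lowest ratio there (log2 -0.39, -0.58 to -0.21) and *Il13ra1* the highest (0.10). In CD301bint cDC2s, 0 were higher (10.7% of all genes) and 1 lower (10.5%), *Crlf2* with a log2 ratio of -0.66 (-0.85 to -0.48). In CD301blo cDC2s, 0 were higher (11% of all genes) and 1 lower (14.2%), again *Crlf2* at -0.67 (-0.86 to -0.48). *Stat5b* was next in CD301bint cDC2s at -0.52 (-0.69 to -0.34), short of the 1.5-fold mark. The medians of the 7 genes in these classes were -0.04 and -0.08, beside 0.05 and 0.01 for all genes.

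Markers of other cell types were also lower in these papain classes. Those of monocytes and macrophages (*C1qa*, *C1qb* and *Ly6c2*, summed) were at 35.9 CPM in naive and 2.93 CPM in papain CD301bint cDC2s and at 33.8 and 20.3 CPM in CD301blo cDC2s, but at 0.88 and 1.96 CPM in CD301bhi cDC2s. *C1qa* and *C1qb*, complement genes of macrophages, had log2 ratios of -4.10 and -4.60 in CD301bint and -0.95 and -1.58 in CD301blo cDC2s. *Ighm*, an immunoglobulin gene of B cells, was at -1.58 and -1.43 in these classes, and in CD301blo cDC2s *Trbc2*, a T cell receptor gene, was at -2.22 and *Epcam* at -2.13. In LCs *Ighm* was at -1.90. Naive cluster 5, described below, carried 94.6% and 87.8% of the macrophage marker UMIs of naive CD301bint and CD301blo cDC2s. The part of these cells or their RNA in the *Crlf2* ratios was not tested.

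In cDC1s, 0 of the 7 genes were higher (10.3% of all genes) and 0 lower (12.6%), with *Stat5a* at a log2 ratio of 0.39 (0.15 to 0.64) and *Il13ra1* at 0.35 (0.06 to 0.64). In LCs, 2 genes were higher (14.4% of all genes) and 0 lower (9.21%). These were *Stat5a* at 0.66 (0.47 to 0.84) and *Stat6* at 0.64 (0.40 to 0.88), while *Crlf2* was at -0.54 (-0.83 to -0.25). The median depth was 10767.5 UMIs per cell in naive and 18290 in papain LCs, and its part in the LC ratios was not tested. *Il4ra* lay at 0.00 in both cDC1s (-0.19 to 0.18) and LCs (-0.17 to 0.17). The medians were 0.04 in cDC1s and 0.04 in LCs, beside 0.02 and 0.06 for all genes.

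The lower *Crlf2* of papain cDC2s came with 1 naive cluster. The authors had clustered the cDC2s of each library by mRNA, into 7 naive and 9 papain clusters. Naive cluster 5 held 246 cells, 12.2% of naive cDC2s, and had 106 CPM of *Crlf2* (97.5 to 116), where the other naive clusters had 16.2 to 46.3 CPM and the papain clusters 15.3 to 37.3 CPM. It carried 46.6% of the *Crlf2* UMIs of naive cDC2s, and 76.4% of its cells had a *Crlf2* UMI against 24.4% of the other naive cDC2s. Since the clusters were made from the same mRNA, this is a description. The level did not depend on CD301b, with 113, 111 and 102 CPM in the CD301bhi, CD301bint and CD301blo cells of the cluster, but the cluster made up 5.52%, 9.71% and 21.7% of those classes. Its median UMI count was 18848 per cell, beside 18800.5 in naive cluster 1, where *Crlf2* was at 25.0 CPM.

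Among the other receptor chains, *Il2rg* and *Il13ra1* were also high in naive cluster 5, whereas *Il7r* was low. *Il2rg* was at 139 CPM (128 to 149), beside 67.1 to 95.9 CPM in naive clusters 1 to 4 and 151 and 164 CPM in the small clusters 6 and 7, and the cluster carried 38.5% of the *Il2rg* UMIs of naive CD301blo cDC2s. *Il13ra1* was at 84.3 CPM, above each naive cluster but cluster 6, with a UMI in 67.5% of its cells against 48.4% of the other naive cDC2s. *Il7r* was at 68.5 CPM, its lowest among the clusters of both libraries, and *Il4ra* at 67.3 CPM, also its lowest. *Stat5a* at 83.9 CPM and *Stat6* at 43.4 CPM lay within the range of the other naive clusters. The summed macrophage markers were at 129 CPM in cluster 5 and at 0.23 to 29.7 CPM in the other naive clusters, and the LC markers at 44.0 against 3.03 to 5.51 CPM. B cell markers were at 72.4 CPM, above naive clusters 1 to 4 and 6 but below cluster 7 (247 CPM), and T cell markers at 6.55 CPM. *Ccr7*, the chemokine receptor of migratory DCs, was at 1389 CPM in cluster 5 and 2754 to 5029 CPM in the other naive clusters. *Mgl2*, which encodes CD301b itself, was at 276 CPM in cluster 5 and at most 33.3 CPM in the others. The papain cluster with the lowest *Ccr7* (cluster 6, 711 CPM) had 1.37 CPM of *Mgl2* and 19.6 CPM of *Crlf2*, and no papain cluster had more than 7.40 CPM of *Mgl2*.

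Without naive cluster 5, *Crlf2* in naive CD301bhi, CD301bint and CD301blo cDC2s was at 20.5, 25.1 and 23.3 CPM, beside 21.2, 23.4 and 28.1 CPM in the papain library. The log2 ratios were then 0.05 (-0.17 to 0.26), -0.10 (-0.32 to 0.12) and 0.27 (0.01 to 0.54), the last on the other side of 0 from the value with all cells. This comparison, chosen after the clusters were seen, takes cells from 1 library only. LCs were not in these clusters, and their *Crlf2* ratio of -0.54 was not examined in this way. The median share of mitochondrial UMIs was also lower in the papain classes (2.56% to 3.16%) than in the naive classes (3.62% to 4.15%). Among the naive clusters it was lowest in cluster 5 (2.95%) and highest in cluster 3 (6.58%), where *Crlf2* was at 16.2 CPM. The part of this share in the *Crlf2* difference was not tested.

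**Figure D2:**
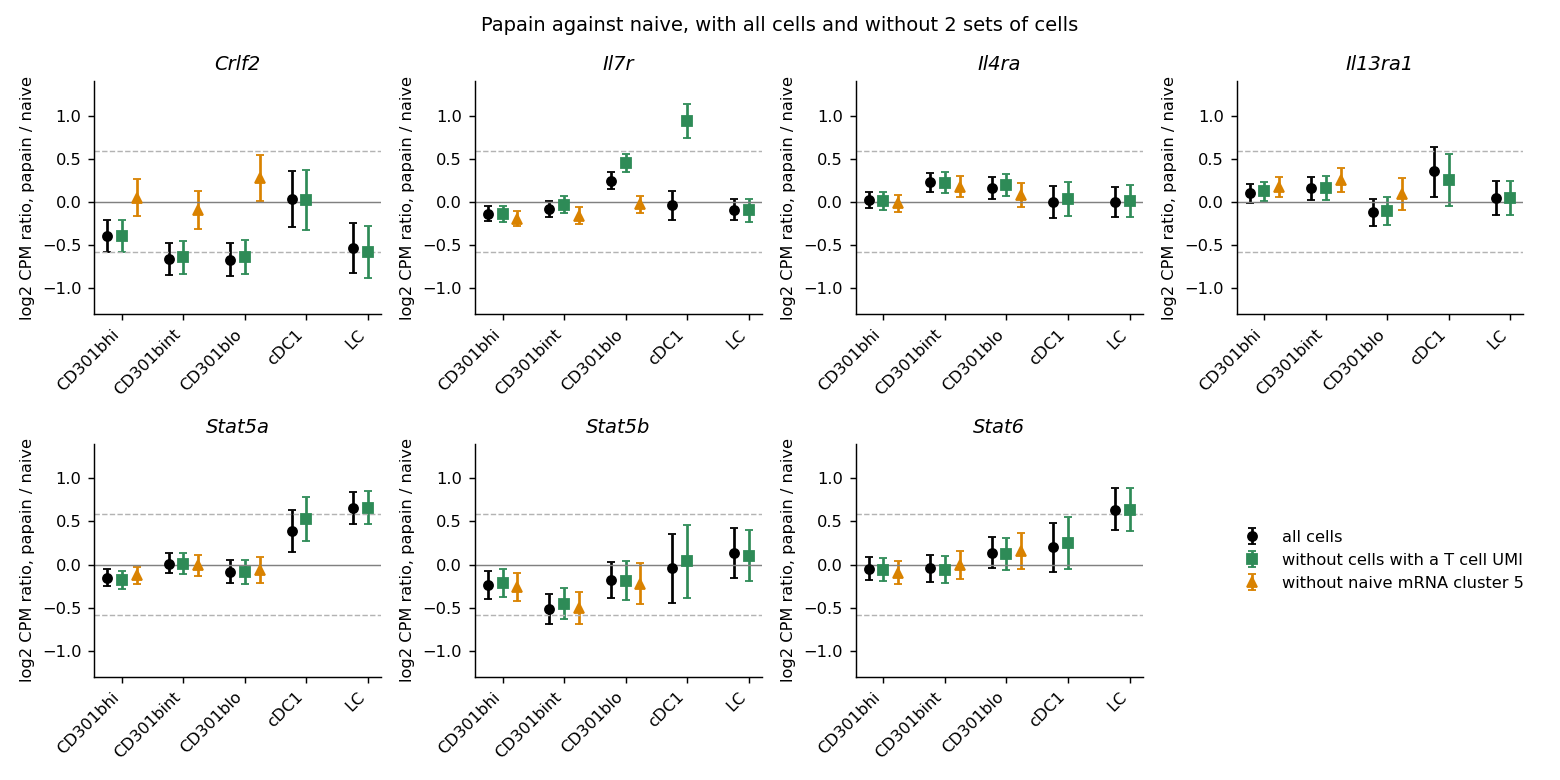
Log2 ratio of papain to naive CPM (y axis) of each gene in the 5 classes (x axis) with all cells (black), without cells with a T cell UMI (green) and without naive mRNA cluster 5 (orange, cDC2s only); bars are exact 95% intervals and dashed lines mark 1.5-fold. The *Crlf2* ratios of the cDC2s move from below 0 to between -0.10 and 0.27 without the cluster, and the *Il7r* ratio of cDC1s moves from -0.04 to 0.94 without T cell UMIs.

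**Figure D3:**
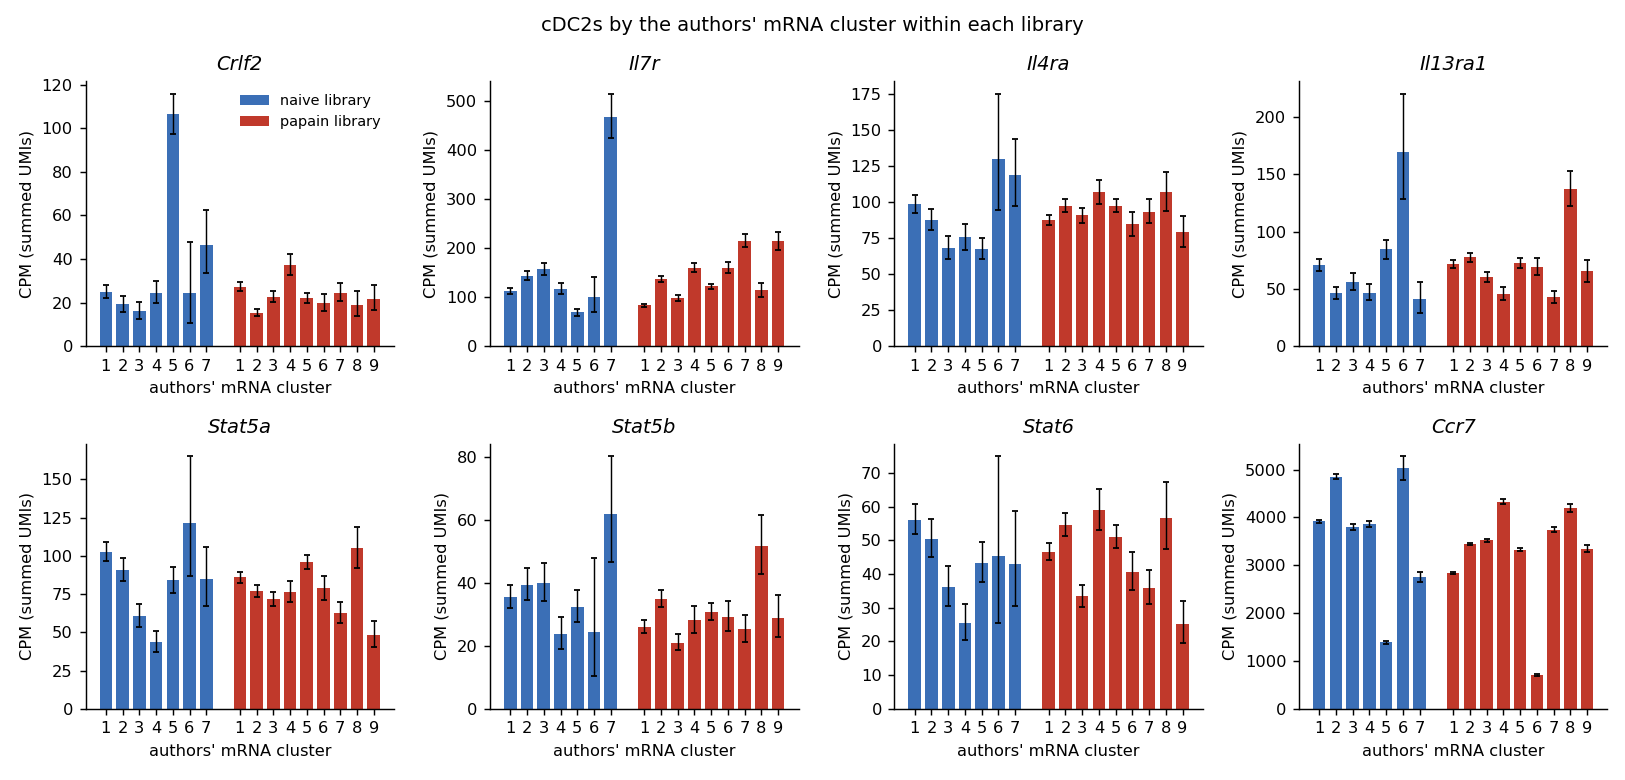
CPM of summed UMIs (y axis, from 0) of the 7 genes and of *Ccr7* in the authors' mRNA clusters of cDC2s (x axis), naive clusters in blue and papain clusters in red, with exact 95% Poisson intervals. Naive cluster 5 stands out for *Crlf2* at 106 CPM and low *Ccr7*, and naive cluster 7 for *Il7r* at 468 CPM.

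*Il7r* was touched by UMIs of T cells. A UMI of *Cd3d*, *Cd3e*, *Cd3g* or *Trac*, which encode parts of the T cell receptor complex, was found in 17.1% (14.1% to 20.5%, exact Clopper-Pearson) of naive cDC1s and in 4.53% to 9.88% of the other classes of both libraries. Those naive cDC1s carried 59.9% of the *Il7r* UMIs of their class. Without them *Il7r* was at 65.1 CPM (59.5 to 71.1) in naive and 125 CPM (112 to 138) in papain cDC1s, the lowest and the third highest of the 10 groups left after the same step, and the log2 ratio was 0.94 (0.74 to 1.14) in place of -0.04. The median depth was 15806.5 UMIs per cell in naive and 12399 in papain cDC1s.

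In naive cDC2s the T cell UMIs were gathered in cluster 7, with 50 cells, 56.0% of them with such a UMI, 468 CPM of *Il7r* and 68.0% of its cells in the CD301blo class. Summed markers of NK cells (165 CPM), of ILC2s and mast cells (85.9 CPM) and of B cells (247 CPM) were also highest there among the naive clusters. Which of these cell types its *Il7r* came with was not tested. With all cells, *Il7r* was lower in CD301bhi than in CD301blo cDC2s in both libraries, with log2 ratios of -0.21 (-0.32 to -0.10) in naive and -0.59 (-0.65 to -0.53) in papain cells. Without the T cell UMIs the naive ratio was -0.01 (-0.13 to 0.11) and the papain ratio -0.60 (-0.66 to -0.53). Without clusters 5 and 7, naive *Il7r* was at 124, 131 and 130 CPM in CD301bhi, CD301bint and CD301blo cDC2s. The papain classes kept 107, 117 and 162 CPM without the T cell UMIs, so that *Il7r* was lower toward CD301bhi in the papain library with and without these cells. In the naive library this depended on the cells kept, since the ratio was -0.42 (-0.54 to -0.31) without cluster 5 alone, 0.11 (-0.01 to 0.23) without cluster 7 alone and -0.06 (-0.19 to 0.07) without both.

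Over the 9 papain clusters *Il7r* ran from 83.3 to 215 CPM. The 4 clusters in which at least 50.6% of cells were CD301bhi (clusters 1, 2, 5 and 8) had 83.3, 137, 122 and 114 CPM, and the 3 in which at least 50.7% were CD301blo (4, 7 and 9) had 160, 215 and 214 CPM. The cluster with the most CD301bhi cells (67.2%) was thus at 137 CPM and the one with the most CD301blo cells (78.5%) at 160 CPM, closer together than the extremes. In the remaining clusters, 3 and 6, *Il7r* was at 98.0 and 160 CPM. The share of cells with a T cell UMI was 2.22% to 12.9% over the 9 clusters. The papain to naive ratio of *Il7r* in CD301blo cDC2s depended on the naive clusters, at 0.25 (0.15 to 0.34) with all cells, -0.03 without cluster 5, 0.59 without cluster 7 and 0.35 without both.

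The comparison of CD301bhi with CD301blo cDC2s asked whether the receptors follow the class that marks type 2 priming DCs. In the naive library 0 of the 7 genes were at least 1.5-fold higher in CD301bhi cells (5.02% of all genes) and 1 was lower (9.53%), *Crlf2* at a log2 ratio of -0.69 (-0.90 to -0.47). Without cluster 5 that ratio was -0.18 (-0.49 to 0.12). In the papain library 1 was higher (4.28% of all genes), *Il13ra1* at 0.61 (0.50 to 0.71), and 1 was lower (3.99%), *Il7r* at -0.59. *Il13ra1* was also higher in naive CD301bhi cells, at 0.39 (0.22 to 0.55), as were *Stat5a* at 0.32 and *Stat6* at 0.33, with papain ratios of 0.25 and 0.14. The medians of the 7 genes were 0.18 in naive and 0.12 in papain cells, beside -0.06 and 0.01 for all genes. Markers of other cells were lower in CD301bhi cells too. Naive *C1qa* and *C1qb* had log2 ratios of -4.78 and -6.34, *Cd79b* and *Ighm*, genes of B cells, -2.67 and -2.43, *Trbc2* -2.19 and *Epcam* -1.57, and in papain cells *Cd79b* and *Ighm* had -3.90 and -2.43. The summed B cell markers were at 12.9 and 63.3 CPM in naive and at 4.59 and 28.8 CPM in papain CD301bhi and CD301blo cDC2s, and the summed T cell markers at 10.7 and 52.1 CPM and at 9.55 and 14.1 CPM. Their part in the ratios of *Crlf2*, *Il7r* and *Il13ra1* was not tested.

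Ordering the cDC2s of each library by the CD301b antibody alone, in 5 groups of equal size, gave *Il13ra1* highest in the top and *Crlf2* and *Il7r* highest in the lowest group of both libraries. *Il13ra1* went from 47.9 CPM in the lowest to 65.6, 70.9, 76.7 and 78.2 CPM in the highest group of papain cDC2s, without a step down. In naive cDC2s it was at 55.3, 62.6, 56.0, 67.0 and 73.9 CPM from the lowest to the highest group, with 1 step down. *Il7r* went from 171 CPM to 131 and then 110 CPM in each of the 3 upper groups of papain cDC2s, and from 143 to 107 CPM in naive cDC2s, with log2 ratios of top to bottom of -0.64 (-0.72 to -0.56) and -0.42 (-0.57 to -0.27). The middle naive groups lay between 130 and 133 CPM. *Crlf2* stood out in the lowest naive group, at 54.1 CPM against 28.6 to 36.4 CPM in the rest, and went from 29.6 to 19.5 CPM in papain cDC2s. Naive clusters 5 and 7 were kept in the 5 groups, and their part in the naive *Crlf2* and *Il7r* values was not tested. Their median CD301b values were 0.53 and 0.29, and the lowest naive group ended at 0.38. *Stat6* had its highest value in the top group of both libraries, at 51.7 and 50.8 CPM. *Il4ra* stayed between 88.6 and 96.9 CPM over the papain groups, with a log2 ratio of top to bottom of -0.03 (-0.13 to 0.07), beside 0.22 (0.04 to 0.40) in naive cDC2s.

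**Figure D4:**
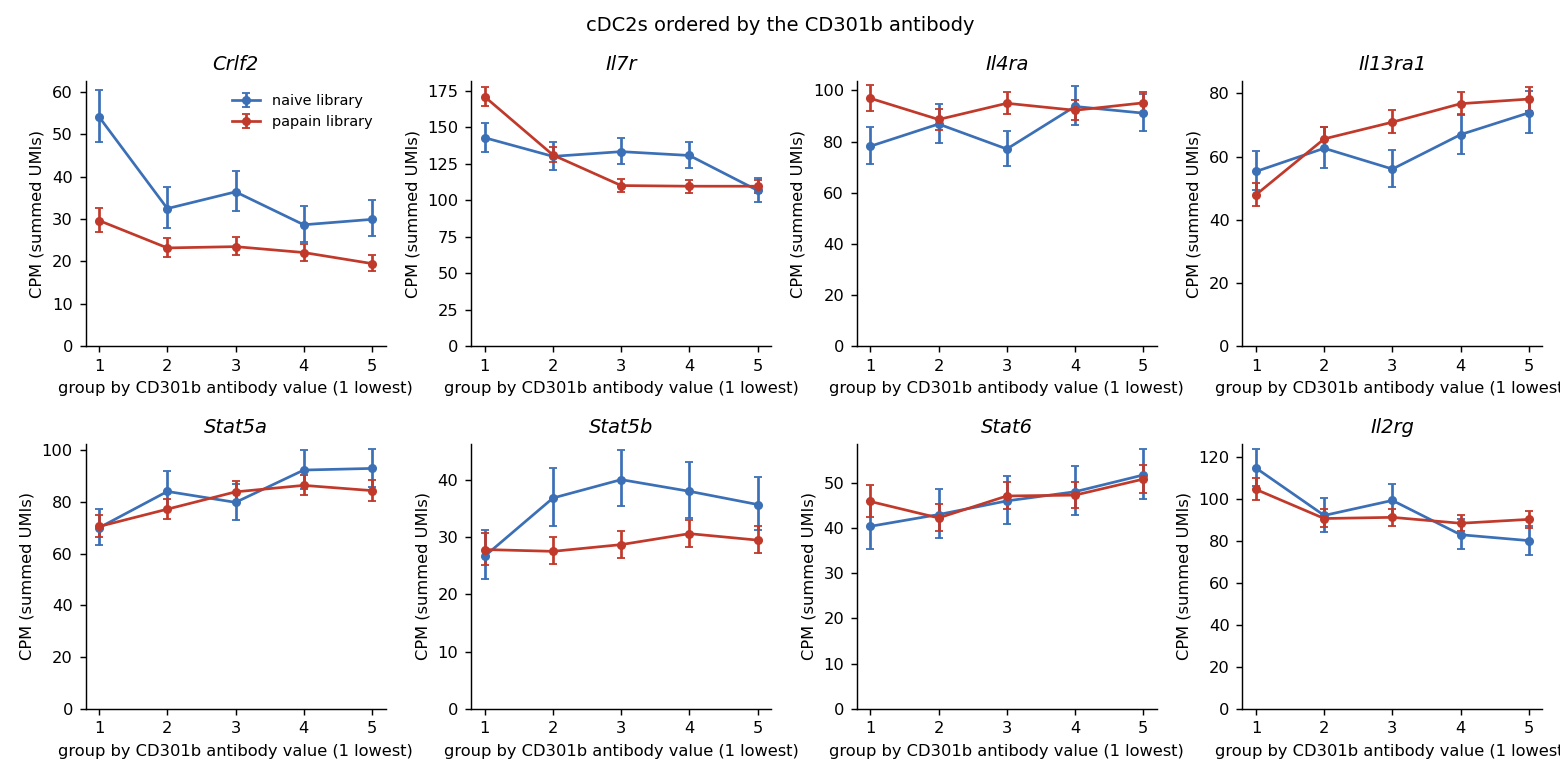
CPM of summed UMIs (y axis, from 0) of the 7 genes and *Il2rg* in cDC2s split into 5 groups of equal size by the CD301b antibody value (x axis, 1 lowest) in the naive (blue) and papain (red) library, with exact 95% Poisson intervals. *Il13ra1* was highest and *Il7r* and *Crlf2* lowest toward the CD301bhi end of the papain library.

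*Il13ra1* was furthest from the rest in 2 small clusters of shallow cells. It was at 170 CPM (128 to 220) in naive cluster 6, with 55 cells and a median of 5929 UMIs, and at 137 CPM (122 to 153) in papain cluster 8, with 316 cells and a median of 7249 UMIs. The other naive clusters had 40.8 to 84.3 CPM and the other papain clusters 42.5 to 77.5 CPM. *Il4ra* and *Stat5a* were at 130 and 121 CPM in naive cluster 6 and at 107 and 105 CPM in papain cluster 8, the highest of each library, though for *Il4ra* papain cluster 4 was also at 107 CPM. The clusters held 47.3% and 50.6% CD301bhi cells, and the part of depth in these levels was not tested.

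The chains of each receptor were also counted in single cells. *Crlf2* had a UMI in 23.6% to 35.8% of cells per class and *Il7r* in 51.0% to 74.7%, and both were found in the same cell in 15.7% to 22.6%. That joint share was 0.912 to 1.02 times the share given by the product of the single shares within 10 groups of cells ordered by depth. *Il4ra* with *Il13ra1* was found in 19.3% to 50.02% of cells, at 0.970 to 1.04 times the product, and *Il4ra* with *Il2rg* in 17.7% to 54.0%, at 0.986 to 1.13 times. The chains were thus found together about as often as their single shares and the depth of the cells give. *Il7r* was less evenly spread than its level gives, with a UMI in 67.8% of naive CD301bhi cDC2s where an even spread by depth would give 82.0%. In naive cDC1s the shares were 51.0% and 84.3%, and cells with a T cell UMI carried 59.9% of its UMIs there. An uneven spread is not claimed to be particular to *Il7r*, since no even-spread share is set beside the other genes. *Stat5a* had 1083 UMIs over the 707 naive CD301bhi cDC2s, with 106 of these UMIs in naive cluster 5. It had a UMI in 61.1% of the cells outside that cluster and in 76.9% of those in it. *Il13ra1*, which mouse T cells are held to lack, was also read in cells without a class that had a T cell UMI. It had a UMI in 1.62% of the 247 such papain cells (median depth 6980), beside 39.7% to 66.5% of the papain classes (median depths of 11351 to 18290). In the naive library it had a UMI in 10.1% of the 247 such cells (median depth 7693), beside 37.2% to 57.1% of the classes (median depths of 10767.5 to 15806.5). The CPM of *Il13ra1* in these cells were 4.19 in papain and 22.4 in naive cells, the latter beside 36.4 to 72.1 CPM in the naive classes. Naive cells with neither a class nor a T cell UMI had 61.9 CPM, at a median depth of 26731.5. Doublets were not called, so free RNA cannot be told apart from DCs or doublets among the cells with a T cell UMI. Thinned to 8392 UMIs per cell, *Crlf2* had a UMI in 17.6%, 21.5% and 25.1% of naive and in 15.1%, 16.6% and 19.5% of papain CD301bhi, CD301bint and CD301blo cDC2s, the order seen in the CPM.

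The wider pathway was read from a list of 53 further genes, 46 of them in the files. In CD301bhi cDC2s, 37 of the 46 reached 10 CPM, of which 7 were at least 1.5-fold higher in the papain library (10.2% of all genes) and 4 lower (8.39%). The counts higher and lower were 8 and 3 of 36 in CD301bint cDC2s, beside 10.7% and 10.5% of all genes. In CD301blo cDC2s they were 5 and 6 of 38, beside 11% and 14.2%. In cDC1s they were 8 and 3 of 35, beside 10.3% and 12.6%, and in LCs 9 and 4 of 34, beside 14.4% and 9.21%. The kinases that bind these receptors differed little in cDC2s, with *Jak1* at log2 ratios of -0.12 to 0.12, *Jak2* at -0.26 to -0.18 and *Tyk2* at -0.03 to 0.20. *Il2rg* was at -0.08 to 0.15 in cDC2s and 0.45 in LCs. The mRNA of TSLP itself was nearly lacking, at 0.56 to 4.20 CPM in naive and 0.27 to 0.48 CPM in papain classes. *Il4* and *Il13* were not among the genes listed for the libraries.

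Among other receptors that use STAT5, *Il2ra*, the high-affinity chain of the IL-2 receptor, was higher in each of the 5 papain classes, from a log2 ratio of 0.62 in cDC1s to 2.14 (1.88 to 2.42) in LCs, where it was at 99.0 against 22.4 CPM. *Il9r*, of the IL-9 receptor, was lower in the 3 cDC2 classes and in LCs, at -1.18 to -0.76. *Il15ra*, the IL-15 binding chain, was higher in CD301bhi cDC2s at 0.78 (188 against 110 CPM) and just short of the mark in CD301blo cDC2s at 0.58. Without naive cluster 5 these ratios were 0.69 and 0.19. *Il21r*, the receptor of IL-21, was higher in CD301bhi cDC2s at 0.62 and lower in LCs at -0.93 (99.9 against 190.2 CPM). Its CD301bhi ratio was 0.55 without the cluster, short of the mark. *Il3ra*, of the IL-3 receptor, was higher in cDC1s at 0.88. *Il2rb*, the chain shared by the IL-2 and IL-15 receptors and a gene of NK and T cells, was at 0.33 against 25.0 CPM in CD301blo cDC2s (-6.23, -7.70 to -5.09) and at 0.98 against 24.8 CPM in cDC1s (-4.66, -6.95 to -3.10), and the markers of NK cells and T cells were higher in the naive library in both classes too (NK cells 11.3 and 8.11 CPM in naive, 0.55 and 0 CPM in papain cells).

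*Stat4*, the factor used by IL-12, was higher in each of the 5 classes, at 0.71 to 1.35. *Stat3*, used by IL-6 and IL-10 receptors, was higher in cDC1s at 0.65 and in LCs at 0.64, and *Stat2*, used by interferon receptors, in cDC1s at 0.86. *Socs2*, an inhibitor of STAT5 signalling that STAT5 is known to induce, was at 414 to 631 CPM in naive and 866 to 899 CPM in papain cDC2s, with log2 ratios of 0.51, 0.65 and 1.06 in CD301bhi, CD301bint and CD301blo cDC2s, 0.74 in cDC1s and 1.09 in LCs. Without naive cluster 5 the *Socs2* ratios in CD301bhi, CD301bint and CD301blo cDC2s were 0.41, 0.47 and 0.70. *Socs3*, an inhibitor induced by STAT3, was higher in CD301bint cDC2s at 0.69 and in LCs at 1.09. Without the cluster *Socs3* was also past the mark in CD301bhi cDC2s, at 0.65 in place of 0.39. *Socs1*, an inhibitor of JAK kinases, was lower in LCs at -0.94. *Irs2*, an adaptor bound by IL-4R alpha, was lower in CD301blo cDC2s at -0.63 and in cDC1s at -1.62 (23.8 against 73.2 CPM).

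Genes known to respond to IL-4 or TSLP in myeloid cells went both ways. *Ccl17*, a chemokine that draws Th2 cells, was at 847 against 418 CPM in CD301bhi cDC2s (log2 1.02, 0.98 to 1.06) and at 805 against 237 CPM in LCs (1.76), and was also higher in CD301bint cDC2s (1.32) and cDC1s (0.97). *Ccl22*, a chemokine for the same receptor, was higher in LCs at 1.27. *Ccl24*, an eosinophil chemokine, was lower in CD301bhi cDC2s at -1.33 and in LCs at -2.98. *Bcl2l1*, a survival gene, was at 1.28, 1.14 and 0.84 in CD301bhi, CD301bint and CD301blo cDC2s and 0.76 in LCs. *Cd86*, a costimulatory molecule, was at 0.99, 0.93 and 0.51 in the cDC2s and 0.71 in LCs. In CD301blo cDC2s without naive cluster 5, *Bcl2l1* was at 0.56, short of the mark, and *Cd86* at 0.88, past it. *Pdcd1lg2*, which encodes PD-L2, was higher in CD301bint cDC2s at 0.62, in CD301blo cDC2s at 0.93 and in cDC1s at 2.31 (30.3 against 6.11 CPM). *Tnfsf4*, which encodes OX40 ligand, was lower in CD301blo cDC2s at -1.20 (7.59 against 17.4 CPM). *Mgl2* and *Retnla*, markers of IL-4-exposed macrophages, were lower in the papain cDC2s, with log2 ratios of -5.54 and -2.92 in CD301bhi, -6.96 and -5.62 in CD301bint and -4.19 and -6.43 in CD301blo cDC2s. In cDC1s *Retnla* was at 0.33 against 25.4 CPM, with 1 papain UMI (-6.29, -11.59 to -3.79). Naive cluster 5 carried 99.1% of the *Mgl2* UMIs and 64.4% of the *Retnla* UMIs of naive CD301bhi cDC2s. Without it *Mgl2* in CD301bhi cDC2s was at 0.57 CPM in naive (6 UMIs) and 1.21 CPM in papain cells, a log2 ratio of 1.08 with an interval from -0.12 to 2.58, but in CD301bint cDC2s the ratio was still -3.09 (-4.09 to -2.16). *Retnla* had -1.55 (-1.83 to -1.27) in CD301bhi and -3.35 (-3.68 to -3.03) in CD301bint cDC2s without the cluster. The same cluster carried 32.1% of the *Crlf2* UMIs of naive CD301bhi cDC2s, whereas *Ccl17*, *Bcl2l1* and *Il2ra* had 2.10%, 2.07% and 0.33% of their naive CD301bhi UMIs in that cluster.

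Between CD301bhi and CD301blo cDC2s, *Irs2* and *Ccl17* were higher in CD301bhi cells of both libraries, with log2 ratios of 0.60 and 0.59 in naive and 1.25 and 1.14 in papain cells, and *Cd80*, a costimulatory molecule, and *Il9r* were lower in both, at -0.95 and -0.70 in naive and -0.65 and -1.02 in papain cells. Past the mark in naive cells were also *Socs2* at 0.61, *Ccl22* at 0.81, *Ccl24* at 1.19 and *Mgl2* at 1.89 on the higher side, and *Il7*, the ligand of the IL-7 receptor, at -0.65, *Socs1* at -0.62, *Tnfsf4* at -1.83 and *Il2rb* at -3.25 on the lower. *Stat4* was past it in papain cells, at -0.81, beside -0.54 in naive cells. Papain *Ccl24* and *Tnfsf4*, at 1.93 and -1.75, were under 10 CPM in both groups.

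**Figure D5:**
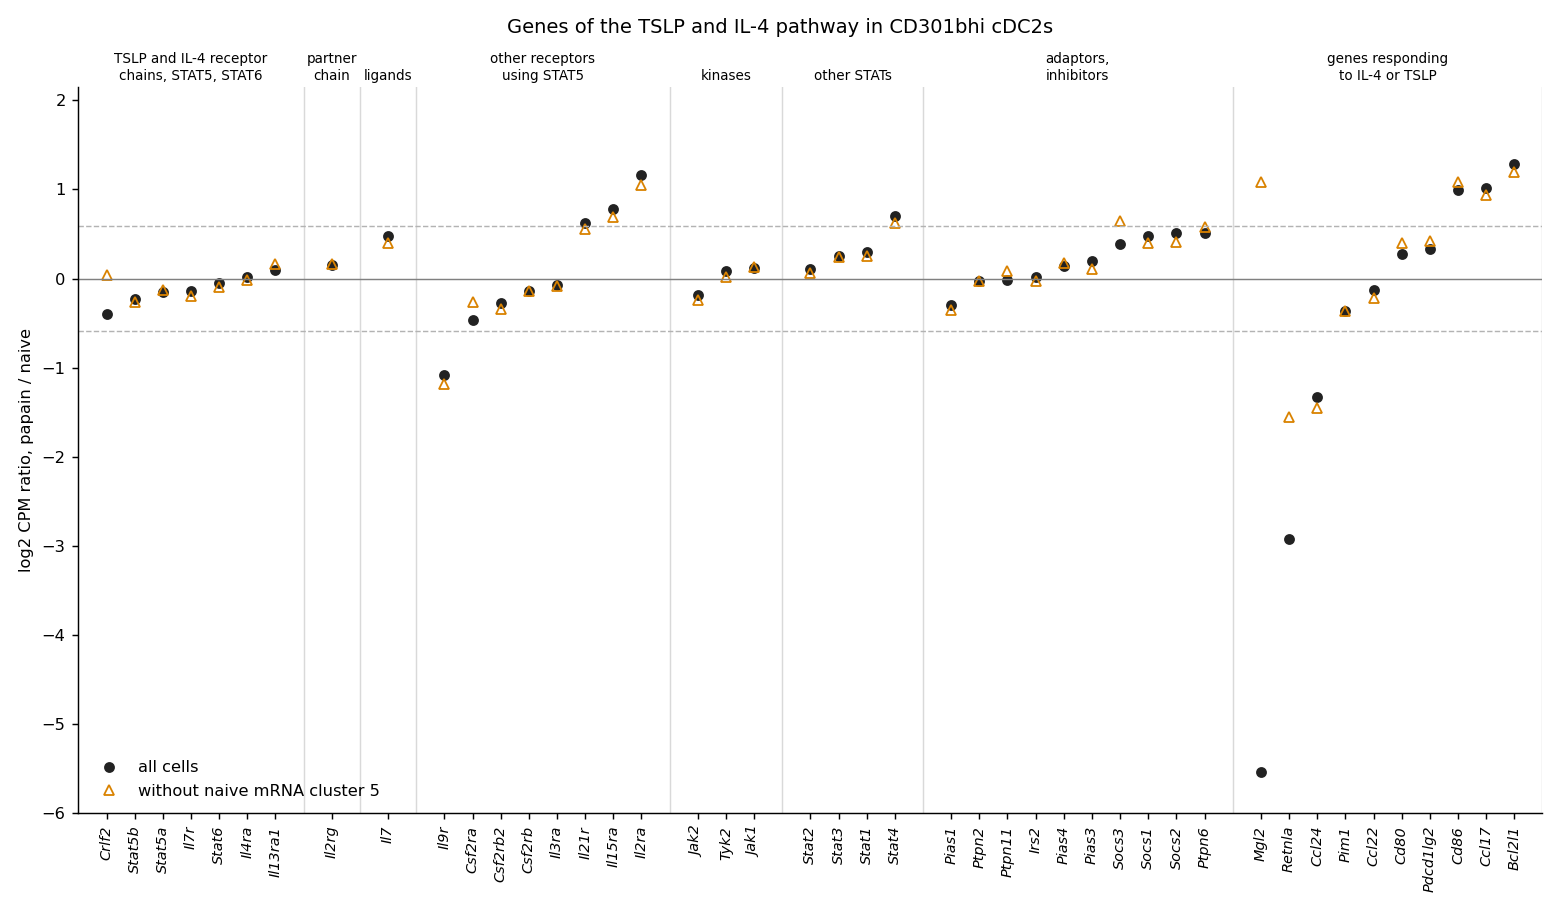
Log2 ratio of papain to naive CPM (y axis) in CD301bhi cDC2s for the 7 genes and for the pathway genes that reached 10 CPM (x axis, grouped by role), with all cells (black) and without naive mRNA cluster 5 (orange triangles); dashed lines mark 1.5-fold. The 7 genes lie between -0.39 and 0.10, while *Mgl2* moves from -5.54 to 1.08 (-0.12 to 2.58, 6 naive UMIs) without the cluster and *Ccl17*, *Bcl2l1* and *Il2ra* stay near or above 1.

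Over the 10 levels, the genes most like each of the 7 by Pearson's r of log2(CPM + 1), among genes with at least 50 CPM in a group, are given as a description of values that share libraries and depth. *Crlf2* was most like *mt-Rnr2* (0.93), a mitochondrial ribosomal RNA, and *Arf6* (0.91). *Il7r* had the weakest likeness, with *Ttc14* (0.82) and *Crispld2* (0.82), and *Il4ra* was like *Herc4* (0.96) and *Cmtm7* (0.96). *Il13ra1* was most like *Jak1* (0.97), the kinase its partner chain binds, and *Fxyd2* (0.96). *Stat5a* went with *Plxnd1* (0.96) and *St3gal1* (0.96), *Stat5b* with *Znrf2* (0.96) and *Rpl7-ps7* (0.95), and *Stat6* with *Vps35* (0.98) and *Zdhhc3* (0.93). Among the 7 genes themselves r was 0.83 for *Il13ra1* with *Stat5a* and 0.75 for *Stat5a* with *Stat6*, but 0.41 for the TSLP receptor chains *Crlf2* and *Il7r*.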

How the data were processed

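MHCIIhi CD11c+ B220- cells were sorted and profiled by 3' CITEseq, with 1 naive and 1 papain library (day 1). According to the submitters' processing notes, reads were processed with Cell Ranger 3.0.1 and Partek on mm10. The authors deposited log2 values of CPM plus 1 per cell and antibody values on a natural log (ln) scale, with class and cluster assignments. Whole UMIs were recovered from the log2 values (100% of the values up to 50 UMIs within 0.02 of a whole number), and summed per class and library. Naive cells had 3637 to 57378 UMIs and papain cells 2682 to 57150, and no cell was filtered out. Doublets were not called, and cells with a UMI of *Cd3d*, *Cd3e*, *Cd3g* or *Trac* were left out as an alternative. Counting intervals were exact (95%): Poisson for CPM, Clopper-Pearson for shares, and conditional on the summed count for ratios. A count of 0 was set to 3 for a ratio. Counted were genes past 1.5-fold whose larger value was 10 CPM or more. The shares expected within 10 groups of cells ordered by depth and the thinning to 8392 UMIs (the 10th percentile of depth) were computed for cells with a class. The ratio and its interval were tested on simulated Poisson counts only, which hold no spread between cells beyond counting error. Promoter sequences were RefSeq windows of GRCm38.p6, of which mm10 is the UCSC name, and all 7 genes were matched by symbol.

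Named were the 7 genes, the shared chain, the kinases that reached 10 CPM and the pathway genes past 1.5-fold, those of the response list included. For each of the 7 the 2 genes with the highest r were also named. The genes, the pathway list and the marker lists were chosen with earlier results of these data known. The values without naive clusters 5, 7 or both were chosen after seeing the data. The alternatives were CD301b tertiles over both libraries, a cell filter (at least 500 genes and under 10% mitochondrial UMIs), leaving out the deepest 5% of cells, pseudocounts of 1 and 10 CPM, centring on the median ratio, the mean over cells, a 2-fold mark and a minimum of 50 CPM. Python 3.11.15, numpy 2.4.6, scipy 1.17.1, pandas 2.3.3 and matplotlib 3.10.9 were used.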

Additional observations from a re-analysis of the deposited data

Results flagged for a closer look

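The papain to naive difference of *Il7r* pointed up in CD301blo cDC2s and down in CD301bhi cDC2s, and the log2 ratios were 0.38 apart, although the difference was not tested. Without naive clusters 5 and 7 the ratios were 0.35 and -0.18. *Stat5a* likewise pointed up in LCs and down in CD301bhi cDC2s, with log2 ratios 0.81 apart, a difference that was not tested either.

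Cells that the authors left without a class entered no comparison. In the papain library they had 42.7 CPM of *Crlf2*, 453 CPM of *Il7r* and 53.1 CPM of *Stat5b*, each above the level in naive cells without a class (31.2, 211 and 43.3 CPM). Of these papain cells, 85.2% had a T cell UMI, against 57.6% of the naive ones. *Il7r* was at 596 CPM in the papain cells with such a UMI and at 105 CPM in those without, and in the naive cells at 416 and 98.0 CPM.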

How the results depend on the processing

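No paired analysis was possible because there was 1 library per condition and the labels give no replicate numbers. Of 462 alternative values of the 49 log2 ratios, 437 lay within the main counting interval, 23 outside it and 2 on the other side of 0 for a ratio past 1.5-fold. Those 2 were *Crlf2* in CD301blo cDC2s, at 0.27 without naive cluster 5 and 0.40 without clusters 5 and 7, since those cells held most of its UMIs. Over all ratios 28 values changed sign. The 1 gene lower in CD301bint cDC2s became 0 with CD301b tertiles, without cluster 5 (alone or with 7), with a pseudocount of 10 CPM, by the mean over cells and at 2-fold. The 1 lower in CD301blo cDC2s became 0 without the deepest 5% of cells, without cluster 5 (alone or with 7), with a pseudocount of 10 CPM, by the mean over cells and at 2-fold, and the 0 higher became 1 (*Il7r*) without cluster 7. The 0 higher in cDC1s became 1 (*Il7r*) without T cell UMIs. In LCs the 2 higher became 0 with a pseudocount of 10 CPM and at 2-fold and 1 relative to the median ratio, where the 0 lower became 1. For CD301bhi against CD301blo cDC2s, the 1 lower in naive cells became 0 without cluster 5 (alone or with 7), with a pseudocount of 10 CPM and at 2-fold. In papain cells the 1 higher became 0 with tertiles, a pseudocount of 10 CPM and at 2-fold, and the 1 lower became 0 in these and by the mean over cells. All 70 shares of cells with a UMI moved when 2 UMIs were asked for or cells were thinned.

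Each condition is 1 library, so variation between mice and the node site cannot be told apart from immunization. Removing naive clusters has no counterpart in the papain library. Free RNA and doublets were approached only through T cell UMIs, and genes were compared by summed UMIs, in which deep cells weigh more. Antibody detection of the receptor proteins was not analysed here, and mRNA levels say nothing of STAT phosphorylation.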
